A study of Homo sapiens with 36 samples.

Results

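The 40 genes described here encode the parts of the proteasome that do not cut proteins: the structural rings of its core, the regulatory particle, the activators and the chaperones that help to assemble them. They were taken by symbol from a fixed list of non-catalytic proteasome genes, after the Ensembl identifiers were matched without their version number to GENCODE release 29 on GRCh38. All 40 were found, among 58219 genes listed in the RNA data and 43582 listed in the footprint data. They comprise 7 alpha subunits of the 20S core (PSMA1 to PSMA7), 4 non-catalytic beta subunits (PSMB1 to PSMB4), 9 subunits of the 19S base (PSMC1 to PSMC6, PSMD1, PSMD2 and PSMD4) and 8 subunits of the 19S lid (PSMD3, PSMD6, PSMD7, PSMD8, PSMD11, PSMD12, PSMD13 and PSMD14). The other members are 3 chaperones of the base (PSMD5, PSMD9 and PSMD10), 4 activator genes (PSME1 to PSME4) and 5 genes for the assembly of the 20S core (PSMG1 to PSMG4 and POMP).

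The study exposed WiT49, a cell line derived from an anaplastic Wilms tumor of the kidney, to actinomycin D (actD), which binds DNA and can block transcription. Cells received 2 nM actD or its vehicle, dimethyl sulfoxide (DMSO). Exposure lasted 6 h, 72 h or 2 weeks, the last as 2 cycles of 7 days with 3 days of additive and 4 days of plain medium. Total RNA and ribosome footprints, the short RNA fragments that translating ribosomes shield from nuclease, were sequenced with 3 libraries in each of 12 groups, 36 libraries in all. The model is a single cell line, and since the labels do not say that the 3 libraries of a group came from separate cultures, p-values measure only the spread between these libraries. For RNA at 2 weeks the title and treatment label of each library give the opposite treatment to its library name, so the text writes "named actd" and "named dmso" for these groups, following the library name, and the direction of their difference is uncertain. The labels name 2 RNA extraction kits and 2 library kits but do not tie a kit to a library, so the kit and the treatment cannot be told apart.

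The proteasome degrades proteins that carry ubiquitin chains. Its 20S core is a barrel of stacked rings: the alpha subunits form the outer rings and the gate, and the beta subunits form the inner rings that hold the catalytic sites. The 19S regulatory particle caps the barrel. Its base contains a ring of ATPases that unfold substrates together with large scaffold and ubiquitin-binding subunits, and its lid contains the deubiquitinase that strips the ubiquitin chain. PSME1, PSME2, PSME3 and PSME4 encode alternative caps that open the gate without ATP. Cells that lose proteasome activity are known to raise most subunit genes together through the transcription factor NFE2L1, which binds antioxidant response elements in their promoters.

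An RNA library held 40221994 to 69240041 counts in total and a footprint library 152556 to 1281039, of which protein-coding genes took 52.9% to 76.3% in RNA and 2.12% to 40.4% in footprints. The TMM scaling factors of the footprint libraries ranged from 0.383 to 2.35. The 40 members together took 148992 to 394548 counts of an RNA library and 64 to 2264 counts of a footprint library, so the footprint data bear on far fewer members. As a check of the label, the Wilms tumor and nephron progenitor markers WT1 and NCAM1 were above 1 CPM on average, whereas SIX2, PAX2, CITED1, EYA1 and SALL1 were below it. CPM stands for counts per 1e+06 of the scaled library total. 4 of 5 stromal markers were above 1 CPM, led by COL3A1 at a mean of 2185 CPM, and COL1A2 was listed at 0 in every RNA library. Of the kidney epithelial markers 4 of 5 were above 1 CPM, led by CDH6 at a mean of 18.5 CPM. Of the endothelial markers 1 of 4 was, KDR at a mean of 6.19 CPM. 0 of 5 leukocyte markers reached 1 CPM. In bulk RNA of this kind, fewer cells with a transcript and less of it per cell cannot be told apart.

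In vehicle-treated cells core subunits and the core chaperone POMP were the most abundant members. Levels between genes are compared per length, as counts per kb of exon, scaled to 1e+06 over the coding genes of a library and written here as a level. At 72 h the highest level among members belonged to PSMB3, a beta-ring subunit, with 877, 759 and 665 in the 3 DMSO libraries (767 ± 105.8, SD, n = 3). It was followed by POMP, the chaperone that guides beta-ring assembly, at 733 ± 107.1, by the alpha subunit PSMA7 at 707 ± 92.4 and by PSMB4 at 649 ± 49.3 (SD, n = 3 each). The ranges of these 4 neighbours overlapped, though PSMB4 was the lowest of the 4 within each library (704, 611 and 630). The next in order, PSMB1, stood at 472 ± 25.9 (SD, n = 3), below the lowest library of each of the first 4.

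Median levels differed by role, while single genes overlapped. At 72 h alpha subunits spanned 83.2 to 707, beta subunits 167 to 767 and base subunits 77.4 to 343. The median level at 72 h was 560 over the 4 beta subunits, 217 over the 7 alpha subunits, 180 over the 9 base subunits and 152 over the 8 lid subunits. It was 118 over the 5 core assembly genes, 90.8 over the 4 activator genes and 15.1 over the 3 base chaperones. The lowest members were PSMD9, a base chaperone, at 15.1 ± 1.23, PSMG4, a core assembly chaperone, at 5.07 ± 1.40, and PSMD5, another base chaperone, at 0.443 ± 0.0999 (SD, n = 3 each). PSMD5 lay at percentile 29.6 of the protein-coding genes, while PSMB3 lay at percentile 99.2. The median over the 40 members was 160 at 6 h, 164 at 72 h and 133 in the libraries named dmso at 2 weeks, whose treatment is uncertain, on scales that belong to each table.

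**Figure D1:**
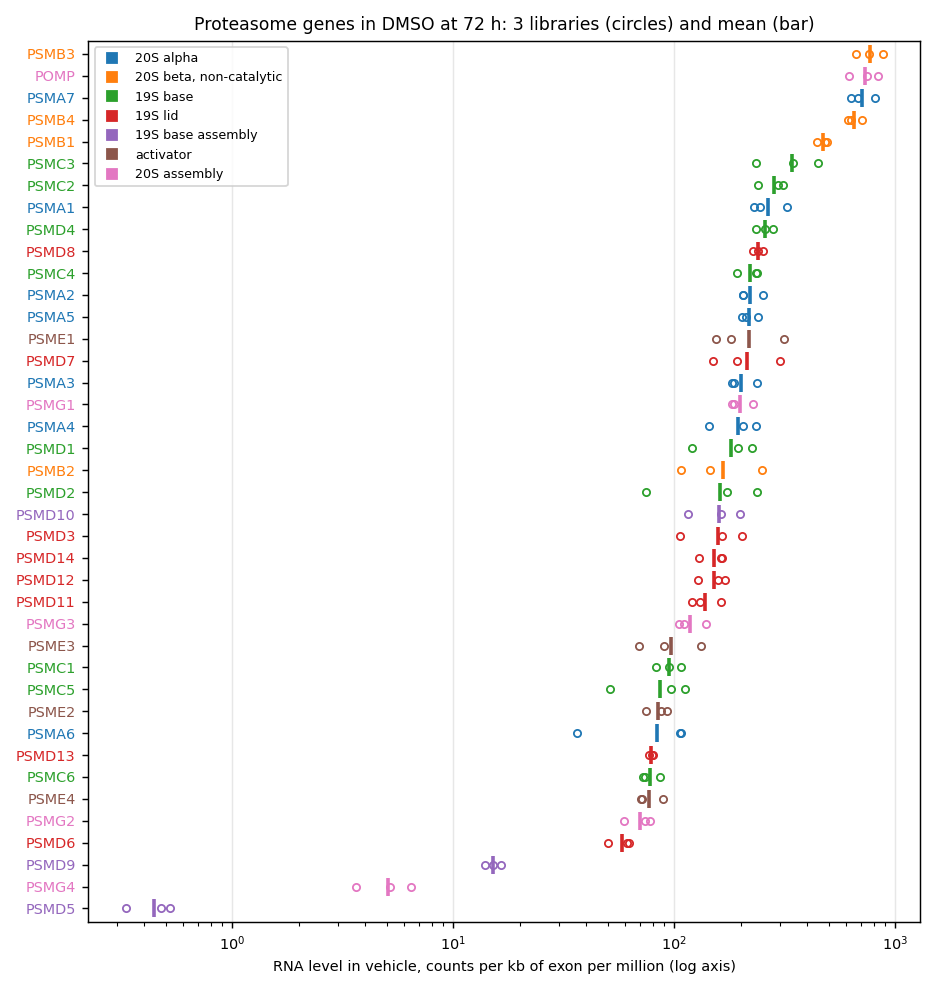
RNA levels of the 40 proteasome genes in vehicle-treated cells at 72 h. Circles are the 3 DMSO libraries, bars their mean, on a log axis of counts per kb of exon per 1e+06, coloured by subgroup; PSMB3, POMP, PSMA7 and PSMB4 lie at the top and PSMD9, PSMG4 and PSMD5 lie far below the other 37.

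The promoters of the members were searched for sequence motifs, which the choice of genes did not use. Of the 40 members, 36 matched RefSeq promoters (GRCh38.p14), 5 of them with more than 1 annotated start, which gives 42 windows. The 250 bases before each start were searched on both strands, each motif separately, so that matches may overlap. The core of the antioxidant response element, TGACNNNGC, was present in 12 of 42 member windows (28.6%), from 12 genes, against 10.9% of 35116 promoter windows. The GC box GGGCGG was present in 30 member windows (71.4%) against 42.6%, CCAAT in 16 (38.1%) against 32.0%, and the ETS-type site CCGGAAGT in 6 (14.3%) against 3.42%. TATAAA was present in 4 member windows (9.52%) against 10.7%, and the E-box CACGTG in 3 (7.14%) against 6.34%, both close to the share of all windows. The median GC content of the member windows was 62.8%, against 58.0% over all windows, and no test of these shares was made. A match describes these letters and not a bound site.

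The sites that match the antioxidant core are shown for 6 of the 12 members, those named by rule in RNA or footprints at 72 h, since this element is the known route by which proteasome genes move together. The core is in capitals, with 10 bases on each side, read 5′ to 3′ along the strand that carries the core. The sites lie at chr15:78540650-78540678 (plus strand), chr17:63827654-63827682 (minus strand), chr9:120843038-120843066 (minus strand), chr14:24146767-24146795 (minus strand), chr2:53971009-53971037 (plus strand) and chr18:12658689-12658717 (plus strand) of GRCh38.p14, and each overlaps an exon of at least 1 GENCODE transcript.
PSMA4: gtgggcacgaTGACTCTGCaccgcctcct
PSMC5: agggcggcgcTGACACAGCagatccggtc
PSMD5: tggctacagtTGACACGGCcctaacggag
PSME2: ccctggactgTGACCCAGCcagcaccgcc
PSME4: gctctgctggTGACGCTGCagccgccggg
PSMG2: cagtttcccgTGACCCCGCggccgctctg

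Longer stretches are shown for 4 members that the RNA results at 72 h set side by side: PSMD1 and PSMB4, whose actD libraries all lay below the DMSO libraries, PSMA3, whose libraries overlapped, and POMP, whose fitted value was above 0. The stretches end before the first annotated exon and lie on the plus strand at chr2:231056617-231056863, chr1:151399323-151399533, chr14:58244593-58244830 and chr13:28658880-28659103 of GRCh38.p14. Capitals mark GC boxes and CCAAT boxes on either strand.
PSMD1: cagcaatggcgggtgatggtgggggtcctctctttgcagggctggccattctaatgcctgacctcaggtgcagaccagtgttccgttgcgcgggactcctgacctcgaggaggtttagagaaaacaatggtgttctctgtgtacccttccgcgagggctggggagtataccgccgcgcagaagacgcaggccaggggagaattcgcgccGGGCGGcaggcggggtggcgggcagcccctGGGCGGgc
PSMB4: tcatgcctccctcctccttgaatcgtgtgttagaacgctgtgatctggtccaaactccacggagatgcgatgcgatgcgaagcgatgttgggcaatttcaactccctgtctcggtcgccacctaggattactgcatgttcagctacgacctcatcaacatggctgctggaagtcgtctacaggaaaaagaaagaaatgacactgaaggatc
PSMA3: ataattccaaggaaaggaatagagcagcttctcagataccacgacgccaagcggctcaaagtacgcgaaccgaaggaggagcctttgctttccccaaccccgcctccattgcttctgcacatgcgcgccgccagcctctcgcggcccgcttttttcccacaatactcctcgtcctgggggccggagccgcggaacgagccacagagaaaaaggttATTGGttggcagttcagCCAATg
POMP: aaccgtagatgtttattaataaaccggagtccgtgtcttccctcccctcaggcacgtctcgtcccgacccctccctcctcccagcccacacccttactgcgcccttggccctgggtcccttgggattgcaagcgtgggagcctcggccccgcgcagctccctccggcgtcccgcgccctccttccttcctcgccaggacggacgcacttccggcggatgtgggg
The PSMD1 stretch holds 2 GC boxes and no CCAAT box, the PSMA3 stretch holds 2 CCAAT boxes on opposite strands, and the stretches of PSMB4 and POMP hold neither. Members with and without the antioxidant core had nearly the same median RNA log2 fold change at 72 h, -0.20 (12 members) and -0.18 (24 members). The medians were -0.20 with a GC box (25 members) and -0.05 without (11 members), and -0.19 both with and without CCAAT.

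The RNA comparison at 72 h had the widest shift among the 3 time points. At a Benjamini-Hochberg adjusted p-value under 0.05 in edgeR's quasi-likelihood fit, 0 of 40 members were called, against 0.00472% of the 21195 genes tested. DESeq2 also called 0 members. In each tool 6 members (15.0%) had an unadjusted p-value under 0.05; in edgeR 13.1% of all genes did, so this share is near the background. The direction was less even than that over all genes: 33 of 40 members (82.5%) had a fitted value below 0, against 48.6% of all genes, and the median log2 fold change was -0.19 over the members and 0.02 over all genes. As the log2 ratio to the DMSO mean, the median member stood at -0.24, -0.29 and -0.17 in the 3 actD libraries. In the 3 DMSO libraries it stood at 0.18, -0.02 and -0.15, so DMSO replicate 3 lay close to actD replicate 3. Members were chosen with results of these data known, so this is a description.

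Values below 0 were most frequent among subunits of the core, base and lid and less so among the chaperones. All 7 alpha subunits (median -0.25), all 4 beta subunits (median -0.22), all 9 base subunits (median -0.34) and 7 of 8 lid subunits (median -0.24) were below 0. Of the 4 activator genes, 3 were below 0 (median -0.30). Among the 5 core assembly genes 2 were below 0 (median 0.21), and among the 3 base chaperones 1 was (median 0.09). The difference between subgroups was not tested.

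PSMD1 had the smallest p-value and the lowest fold change of the 40. It encodes the large scaffold subunit of the base and lies on chromosome 2, 231056864 to 231172827, plus strand (GRCh38, ENSG00000173692.12). In the 3 actD libraries it stood at 52.0, 60.0 and 104.7 CPM, and in the 3 DMSO libraries at 184, 196 and 105.5 CPM. The groups did not overlap, but the highest actD library and the lowest DMSO library, both replicate 3, nearly met. The log2 fold change was -1.16 ± 0.35 (SE), a ratio of 0.447, with an edgeR unadjusted p of 0.0109 and an adjusted p of 0.278. Over 14 alternative analyses it stayed between -1.53 and -0.98, and its adjusted p ranged from 0.0183 to 0.655.

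PSMD14, the deubiquitinase of the lid, followed; it lies on chromosome 2, 161308038 to 161411717, plus strand (ENSG00000115233.11). Its actD libraries held 105.6, 109.5 and 159 CPM and its DMSO libraries 231, 209 and 167.5 CPM, again without overlap and again with replicate 3 of each arm nearest to the other. The log2 fold change was -0.70 ± 0.24 (SE; edgeR unadjusted p = 0.0198, adjusted p = 0.312; adjusted p 0.0408 to 0.691 over the alternatives). A single fit over the RNA libraries of all 3 time points, which shares the spread between them, called PSMD1 (-1.13, adjusted p = 0.0183) and PSMD14 (-0.67, adjusted p = 0.0408) lower in actD. In that fit 2 of 40 members (5.00%) were called, against 4.89% of 24803 genes in either direction and 3.61% lower in actD, so the count of members is near the background.

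Among the ATPases of the base, PSMC2 stood at 114, 113 and 129 CPM in actD and at 201, 176 and 144 CPM in DMSO (-0.55 ± 0.20, SE; edgeR unadjusted p = 0.0262, adjusted p = 0.329). All its actD libraries lay below all its DMSO libraries. The other 5 ATPase genes lay between -0.34 (PSMC3) and -0.03 (PSMC5), each with overlapping libraries. PSMD4, a ubiquitin receptor of the base, was at 97.2, 96.5 and 104 CPM in actD and at 141, 143 and 119 CPM in DMSO (-0.44 ± 0.18, SE; edgeR adjusted p = 0.356), without overlap. PSMD2, the second large scaffold of the base, had a value of -0.46 ± 0.39 (SE) with DMSO libraries that ranged from 68.4 to 215 CPM around all 3 actD libraries.

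In the core, the alpha subunit PSMA1 stood at 108.2, 113 and 101 CPM in actD and at 138, 179 and 136 CPM in DMSO (-0.49 ± 0.19, SE; edgeR unadjusted p = 0.0361, adjusted p = 0.350). Its groups did not overlap. The beta subunit PSMB1 was at 144, 158 and 138 CPM in actD and at 198, 167 and 187 CPM in DMSO, and PSMB4 at 210, 191 and 198 CPM against 277, 221 and 230 CPM; neither pair of groups overlapped. Their log2 fold changes were -0.33 ± 0.18 and -0.28 ± 0.19 (SE; edgeR adjusted p = 0.481 and 0.553). PSMA4, an alpha-ring subunit with the highest mean CPM of its ring, overlapped, with 199, 181 and 217 CPM in actD and 298, 240.5 and 170 CPM in DMSO.

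In all, 9 of 40 members had non-overlapping groups at 72 h: PSMA1, PSMA5, PSMA7, PSMB1, PSMB4, PSMC2, PSMD1, PSMD4 and PSMD14. That share of 22.5% is close to the 20.9% of all genes tested. All 9 were lower in actD, and over all genes 10.3% had every actD library below every DMSO library. PSMD3, a scaffold subunit of the lid, had a log2 fold change of -0.65 ± 0.26 (SE; edgeR unadjusted p = 0.0384), but its lowest DMSO library (89.0 CPM, replicate 3) lay among its actD libraries (80.4, 89.3 and 89.3 CPM).

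The members above 0 were 7: PSMD5, PSMG4, PSMG3, POMP, PSME3, PSMD10 and PSMD12. PSMD5 had the highest value, 0.61 ± 0.36 (SE; edgeR adjusted p = 0.510), at levels under 1 CPM: 0.373, 0.647 and 0.540 CPM in actD against 0.267, 0.354 and 0.391 CPM in DMSO, with overlap. POMP stood at 205, 181 and 244 CPM in actD and at 216, 148 and 180 CPM in DMSO (0.21 ± 0.22, SE; edgeR adjusted p = 0.712), with overlap. PSME4, which encodes the large nuclear activator, was at 90.5, 92.0 and 125 CPM in actD and at 133, 152 and 122 CPM in DMSO (-0.41 ± 0.21, SE; edgeR unadjusted p = 0.0888), where actD replicate 3 lay above DMSO replicate 3. PSMG2, a chaperone of the alpha ring, was at -0.27 ± 0.20 (SE), and PSMD10 at 0.09 ± 0.26 (SE).

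**Figure D2:**
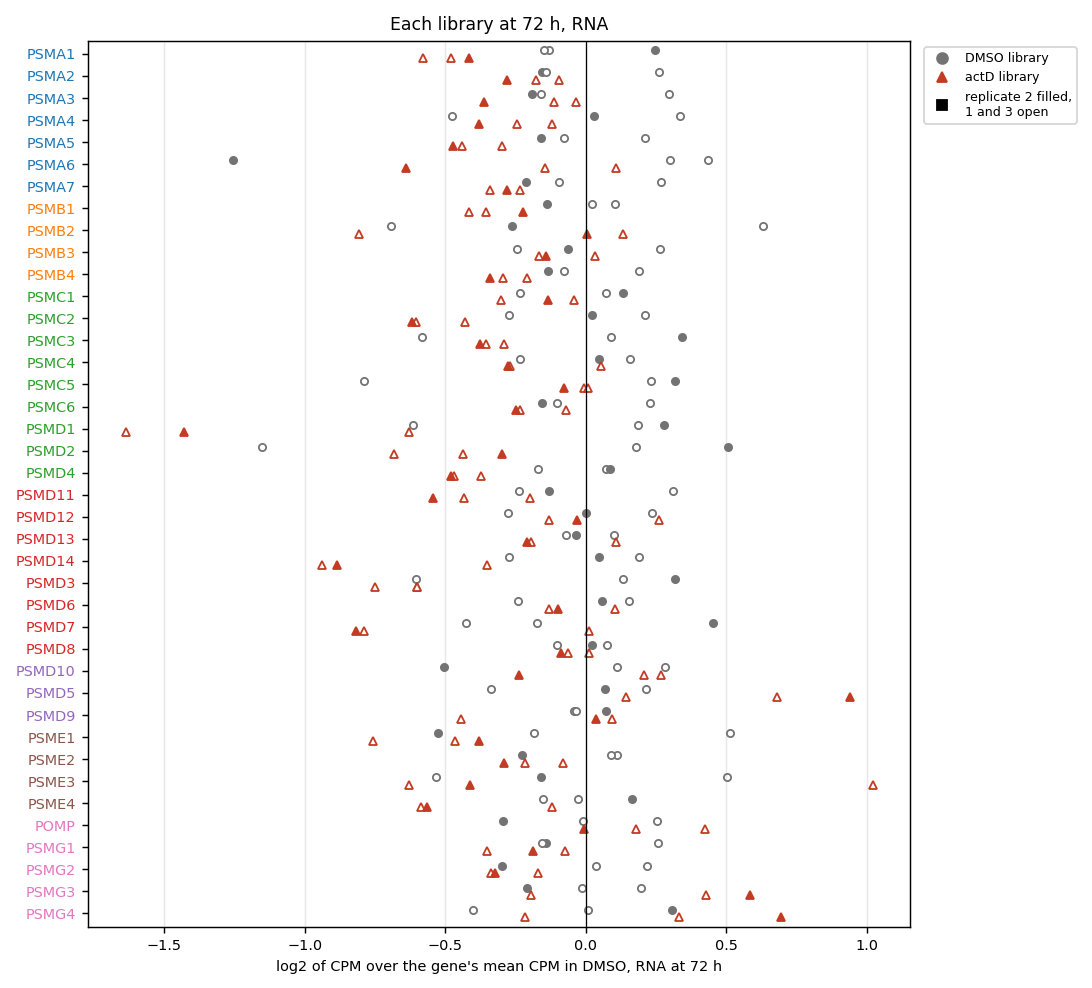
RNA at 72 h in each library, as the log2 of CPM over the gene's mean CPM in DMSO. Grey circles are DMSO libraries and red triangles actD libraries, with replicate 2 filled; PSMD1 and PSMD14 show 2 actD libraries far to the left and replicate 3 near the DMSO range, and the libraries of most other members overlap.

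The remaining members without overlap were 2 alpha subunits. PSMA5 stood at 159, 156 and 176 CPM in actD and at 249.5, 193 and 204 CPM in DMSO (-0.40 ± 0.19, SE; edgeR unadjusted p = 0.0700), and PSMA7 at 183, 177 and 170 CPM against 258, 185 and 201 CPM (-0.28 ± 0.20, SE). For both genes DMSO replicate 1 stood well above the other DMSO libraries. In the lid, PSMD7, the partner of the deubiquitinase PSMD14, was at 58.3, 57.2 and 101.5 CPM in actD and at 75.0, 138 and 89.2 CPM in DMSO (-0.48 ± 0.32, SE), and PSMD11 was at 127, 118 and 150 CPM against 213, 157 and 146 CPM (-0.38 ± 0.22, SE). Both overlapped through actD replicate 3. PSMD6, PSMD8 and PSMD13 of the lid lay within 0.10 of 0.

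The activator pair PSME1 and PSME2, known as interferon-inducible, overlapped with the vehicle. PSME1 was at 48.2, 51.1 and 39.3 CPM in actD and at 58.5, 46.2 and 94.9 CPM in DMSO (-0.53 ± 0.29, SE; edgeR adjusted p = 0.482), where DMSO replicate 3 alone stood far above the rest. Among the core assembly chaperones, PSMG1, which pairs with PSMG2, was at -0.20 ± 0.20, while PSMG3 and PSMG4, which form the other pair, were at 0.31 ± 0.25 and 0.32 ± 0.31 (SE). All 4 overlapped.

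Single libraries moved with this shift. DMSO replicate 1 was the highest library for 20 of 40 members and actD replicate 2 the lowest for 12. Without DMSO replicate 1 the member median was -0.11 and 28 of 40 members were below 0; without actD replicate 3 it was -0.27 and 34 were. The vehicle libraries spread more than at the other time points: the median coefficient of variation of a member was 17.6% in DMSO at 72 h, 10.5% in actD at 72 h, and 7.00% to 13.3% in the RNA groups of 6 h and 2 weeks. In DMSO at 72 h 12 members exceeded 25%, among them PSMA6 (50.7%, with 39.6 CPM in replicate 2 against 128 and 116 CPM), PSMD1 and PSMD2.

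Gene length moved with the 72 h fold changes over all protein-coding genes. Across 14370 coding genes the Spearman correlation of the fold change with the genomic span was -0.29, a description across genes that are not independent replicates and that share the 6 libraries; across the 40 members it was -0.13. The 9 members of at least 30 kb had a median of -0.38, against -0.17 for 7568 coding genes of that size. The 31 shorter members had a median of -0.18, against 0.07 for 6802 shorter coding genes. PSMD1 spans 116 kb, PSMD14 104 kb, PSME4 106.8 kb and PSMA1 139 kb. The part of gene length in the result was not tested.

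At 6 h the members lay close to the vehicle. 0 of 40 were called by edgeR (0% of 22669 genes) and 0 by DESeq2, and 1 member (2.50%) had an unadjusted p under 0.05 in each tool, against 8.21% of genes in edgeR. The median log2 fold change was 0.02 over the members, as over all genes, and 23 members were above 0. It ran from -0.09 without DMSO replicate 3, the lowest library for 23 members, to 0.10 without DMSO replicate 1. All 7 alpha subunits were above 0, by 0.02 to 0.25. The same 7 were below 0 at 72 h.

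In edgeR this member was PSMD1. It stood at 153, 168 and 110 CPM in actD and at 198, 202 and 177 CPM in DMSO. No actD library reached the DMSO range (-0.42 ± 0.17, SE; edgeR unadjusted p = 0.0364, adjusted p = 0.586). PSMD12, a lid subunit, was the other member without overlap, in the opposite direction, with 143, 137 and 162.5 CPM in actD against 97.9, 134 and 124 CPM in DMSO (0.32 ± 0.15, SE; edgeR adjusted p = 0.631). These 2 members are 5.00% of the 40, below the 15.8% of all genes without overlap.

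Other members named by their place at 6 h all overlapped. PSME3, the nuclear activator, had the highest value, 0.35 ± 0.34 (SE), and PSMD5 the lowest, -0.52 ± 0.45 (SE). PSMA7, the member with the highest mean CPM at 6 h, stood at 333, 370 and 382 CPM in actD and at 408, 370 and 285 CPM in DMSO (0.03 ± 0.15, SE), and PSMB4 at 264, 282 and 331 CPM against 349, 305 and 249 CPM (-0.04 ± 0.16, SE). PSMA1 was at 0.25 ± 0.14, PSMG3, a core assembly chaperone, at 0.21 ± 0.13, PSME4 at -0.26 ± 0.14 and PSMD3 at -0.21 ± 0.14 (SE). PSME3 varied widely between libraries of a group, with a coefficient of variation of 50.4% in DMSO at 6 h and of 67.3% in actD at 72 h, where its libraries held 56.3, 65.5 and 177 CPM.

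At 2 weeks the RNA differences were small. 0 of 40 members were called by edgeR (0% of 21137 genes) and 0 by DESeq2, and 0 had an unadjusted p under 0.05 in either tool, against 8.93% of genes in edgeR. The median of named actd minus named dmso was 0.09 over the members and -0.02 over all genes, with 25 members above 0. By the titles both signs turn over, and scaled by library totals the medians were -0.06 over the members and -0.18 over all genes. Non-overlapping groups were seen for 5 members (12.5%), fewer than the 15.7% of all genes: PSMB3, PSMD10, PSMD11, PSMD12 and POMP, all with higher values in the libraries named actd, which over all genes was the case for 7.86%.

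PSMD12 had the smallest p-value there, with 66.9, 58.8 and 57.4 CPM in the libraries named actd and 51.7, 52.0 and 54.9 CPM in those named dmso (0.21 ± 0.11, SE; edgeR unadjusted p = 0.0903, adjusted p = 0.613). POMP had the highest value, with 81.0, 78.8 and 85.3 CPM against 58.9, 71.4 and 77.7 CPM (0.24 ± 0.13, SE; edgeR adjusted p = 0.629). In both genes the lowest library named actd lay only just above the highest named dmso. PSMB3 was at 141, 134 and 138 CPM against 103, 130 and 128 CPM (0.19 ± 0.12, SE), PSMD11, a lid subunit, at 105.4, 103 and 99.1 CPM against 87.5, 91.4 and 97.7 CPM (0.15 ± 0.10, SE), and PSMD10 at 48.0, 45.4 and 44.2 CPM against 38.9, 43.7 and 39.8 CPM (0.17 ± 0.10, SE). PSME3 had the lowest value, -0.36 ± 0.36 (SE), with overlap. PSMD1 overlapped at 2 weeks, with 121, 91.9 and 92.3 CPM in the libraries named actd and 106.3, 106.7 and 118 CPM in those named dmso (-0.12 ± 0.14, SE). Library named dmso 1 was the lowest for 25 of the 40 members.

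**Figure D3:**
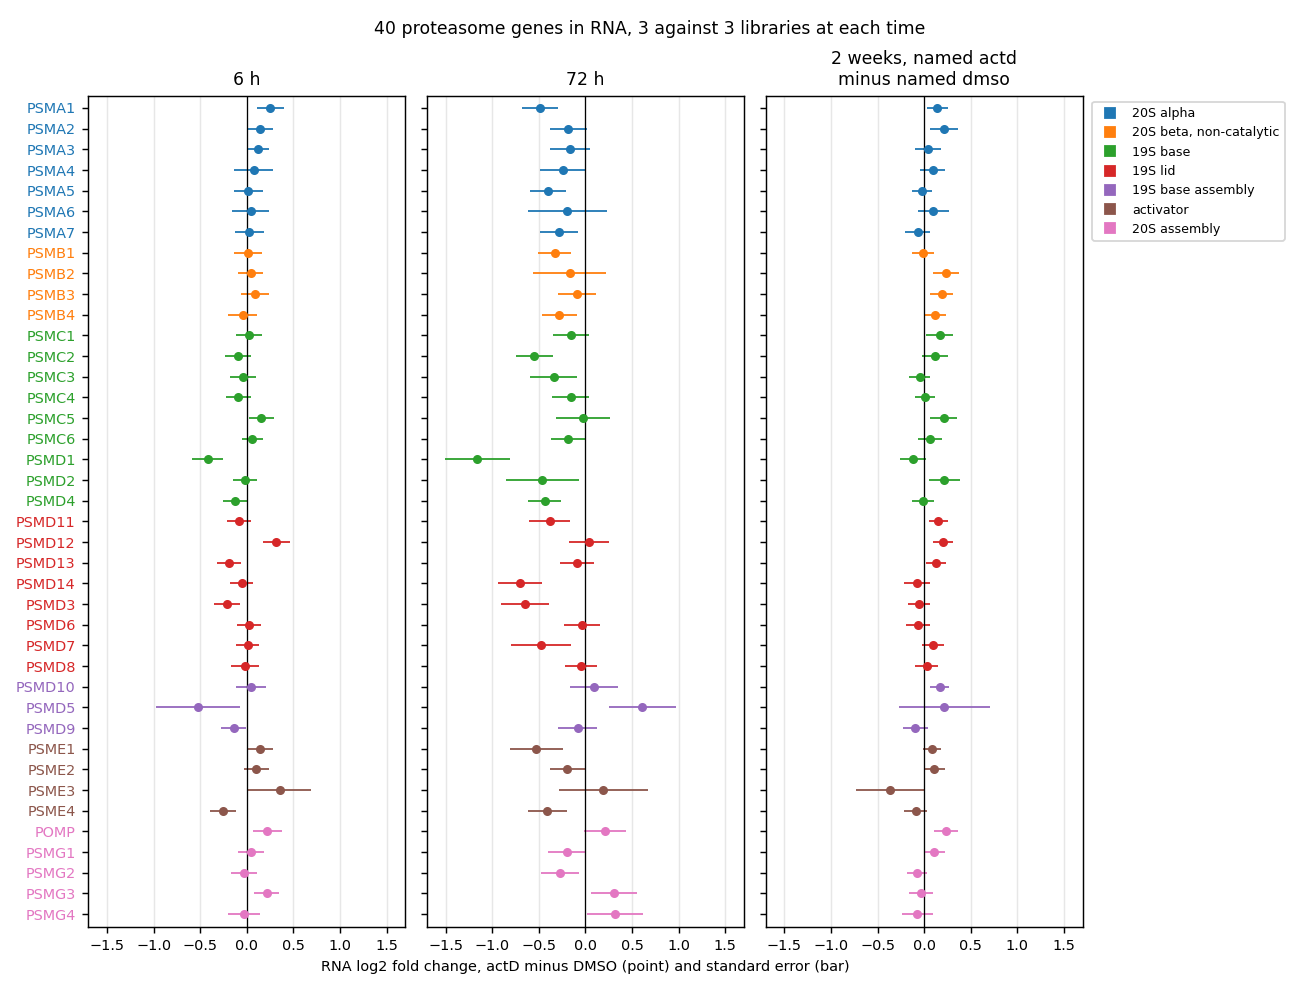
RNA log2 fold changes (points) with standard errors (bars) of the 40 members at 6 h, 72 h and 2 weeks, 3 against 3 libraries at each time, coloured by subgroup. At 72 h 33 members lie left of 0, with PSMD1 at -1.16; at 2 weeks the sign is that of the library names.

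Whether the RNA effect differed between 72 h and 6 h was tested as an interaction over 12 libraries. 0 of 40 members were called by edgeR or DESeq2 (0.0165% of 24251 genes in edgeR), and 2 (5.00%) had an unadjusted p under 0.05 in each tool, against 8.02% of genes in edgeR. In edgeR these were PSMA1 (-0.77 ± 0.24, SE; edgeR unadjusted p = 0.00795, adjusted p = 0.479) and PSMD14 (-0.66 ± 0.28, SE; edgeR unadjusted p = 0.0363, adjusted p = 0.607). For PSMD1 the interaction was -0.75 ± 0.41 (SE; edgeR unadjusted p = 0.0932), so its lower value at 72 h than at 6 h was not separated from the spread. In signs, 14 members were above 0 at 6 h, below at 72 h and above at 2 weeks, and 8 were below 0 at all 3 times, with the 2-week sign taken from the library names.

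As a share of all protein-coding counts, the members took 0.757% ± 0.0128 in actD and 0.751% ± 0.0524 in DMSO at 6 h, and 0.697% ± 0.0165 and 0.743% ± 0.0933 at 72 h (SD, n = 3 each). For named actd and named dmso at 2 weeks the shares were 0.585% ± 0.0293 and 0.562% ± 0.0189 (SD, n = 3). In each pair the difference was smaller than the larger SD. As a share of all counts the difference at 72 h exceeded the larger SD, with 0.406% ± 0.0362 in actD and 0.488% ± 0.0477 in DMSO. At 2 weeks the share of all counts was 0.326% ± 0.0358 named actd and 0.348% ± 0.0151 named dmso (SD, n = 3 each). That direction is opposite to the 2-week protein-coding share. Protein-coding genes themselves took 54.3%, 57.8% and 62.4% of all counts in actD at 72 h, and 63.2%, 66.9% and 67.6% in DMSO. At 2 weeks they took 59.3%, 54.7% and 52.9% named actd and 61.1%, 62.0% and 62.5% named dmso. The part of this in the member shares was not tested.

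Footprints reached only some of the members. PSMD5, PSMG1 and PSMG2 were listed at 0 in all 18 footprint libraries, PSMC1, PSMB3 and PSMD10 in 17, and PSMA7, PSMC2 and POMP in 16. Most of these genes had RNA well above the floor: PSMA7 averaged 236 CPM, PSMB3 157 CPM, PSMC2 144 CPM and POMP 142 CPM in RNA. Among 7019 protein-coding genes with a mean RNA level of at least 20 CPM, 3.39% were listed at 0 in every footprint library, and among the 38 members of that level 2 (5.26%) were. A count of 0 in a library allows up to 3 counts there, for counting error only.

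Some zeros did not follow depth. PSMB1, a beta subunit, was listed at 219, 93 and 270 counts in the actD libraries of 72 h and at 0, 77 and 0 in the DMSO libraries. PSMB3 was listed at 0 in 17 libraries and at 128 counts in actD replicate 3 of 72 h. In 13 instances a member was listed at 0 where the other libraries of its group pointed to at least 10 counts, 6 of them for PSMB1. No fold change of PSMB3 is given, and that of PSMB1 rests on such zeros. The efficiency change of PSMD7 at 72 h also rests on such a zero, in DMSO replicate 2.

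At 72 h 19 of 40 members passed the filter on low counts. The actD libraries held 127856 to 283435 protein-coding counts and the DMSO libraries 26831 to 121227, so a member could pass through the actD group alone, and counts over the 19 describe only those genes. The part of this depth gap in the footprint values at 72 h was not tested. 0 of 19 were called by edgeR (3.79% of 2426 genes) or DESeq2, and 2 (10.5%) had an unadjusted p under 0.05 in edgeR and 0 in DESeq2, against 27.3% of genes in edgeR. Groups did not overlap for 4 of the 19 (21.1%), against 35.7% of genes. Both shares are below the background.

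PSMD1, the lowest member in RNA, was also the lowest in footprints. Its footprint CPM were 38.8, 54.4 and 80.9 in actD and 197, 107.3 and 87.1 in DMSO, from 26, 20 and 68 counts against 87, 32 and 7 counts. The groups did not overlap, with replicate 3 of each arm again nearest to the other (-1.21 ± 0.45, SE; edgeR unadjusted p = 0.0281, adjusted p = 0.137). At 2 weeks its 3 actD libraries lay narrowly below the DMSO libraries in CPM, from 23, 17 and 21 counts against 20, 39 and 21 counts (-0.37 ± 0.29, SE; edgeR adjusted p = 0.689). There actD replicate 3, at 21 counts, and DMSO replicate 1, at 20 counts, all but met after scaling. At 6 h the groups overlapped (-0.72 ± 0.43, SE; edgeR adjusted p = 0.889).

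PSME2, the interferon-inducible activator subunit that pairs with PSME1, had a footprint value above DMSO at 72 h and an RNA value slightly below it. Its footprint CPM were 83.6, 78.9 and 96.4 in actD and 24.9, 60.3 and 37.3 in DMSO, from 56, 29 and 81 counts against 11, 18 and 3 counts. All actD libraries lay above all DMSO libraries (1.08 ± 0.41, SE; edgeR unadjusted p = 0.0291, adjusted p = 0.138). PSME2 could not have passed the filter on its DMSO libraries alone, with 3 counts in replicate 3, so these values are a description. In RNA it stood at 49.6, 42.9 and 45.2 CPM in actD and at 56.7, 44.9 and 55.8 CPM in DMSO, with overlap. Its partner PSME1 overlapped in footprints (0.27 ± 0.36, SE).

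The other members above DMSO in all 3 libraries were PSMA3 and PSMC4. PSMA3, an alpha subunit, was at 116, 108.8 and 142 CPM in actD and at 63.3, 97.2 and 12.4 CPM in DMSO (0.93 ± 0.51, SE; edgeR adjusted p = 0.263), and the lowest value came from 1 count. PSMC4, a base ATPase, was at 38.8, 43.5 and 153 CPM in actD and at 29.4, 36.9 and 37.3 CPM in DMSO (1.24 ± 0.62, SE; edgeR adjusted p = 0.230), so that actD replicate 3 alone stood far from the rest. Neither PSMA3 nor PSMC4 could have passed the filter on its DMSO libraries alone, so their values are a description too. PSMC5 and PSMB4 overlapped, at 0.87 ± 0.54 and 0.55 ± 0.43 (SE), as did the lid subunit PSMD13 at 0.45 ± 0.37 (SE). DMSO replicate 3, with 64 counts over all 40 members the thinnest library of the series, was the lowest library for 9 of the 19.

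**Figure D4:**
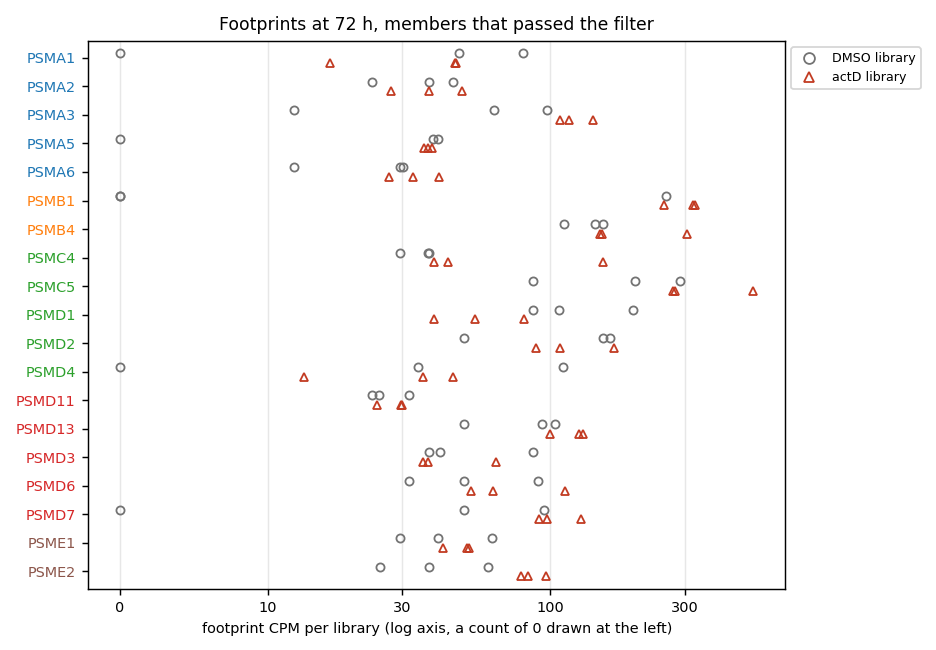
Footprint CPM at 72 h of the 19 members that passed the filter, on a log axis with counts of 0 drawn at the left. Grey circles are DMSO libraries and red triangles actD libraries; PSME2, PSMA3 and PSMC4 have all actD libraries to the right, PSMD1 has them all to the left, and the other 15 overlap.

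At 6 h 7 members passed the filter in footprints and at 2 weeks 15 did. 0 were called at either time by edgeR (0% of 1212 and 0% of 1598 genes) or DESeq2, and 0 had an unadjusted p under 0.05 in either tool, against 3.14% and 8.57% of genes in edgeR. At 6 h no member had non-overlapping groups (9.41% of genes), and at 2 weeks 2 of 15 (13.3%) did, against 14.9% of genes. These were PSMD1 and PSMD2, the latter with 22, 25 and 18 counts in actD and 15, 16 and 12 counts in DMSO (0.54 ± 0.26, SE; edgeR unadjusted p = 0.0741, adjusted p = 0.562). PSMD2 thus lay above DMSO where PSMD1, the other scaffold of the base, lay narrowly below.

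The footprint effect was also compared between times. At 72 h against 6 h 0 of 23 members were called by edgeR (0% of 3012 genes) or DESeq2, and 1 (4.35%) had an unadjusted p under 0.05 in each tool, against 6.54% of genes in edgeR. In edgeR this was PSMD12 (edgeR unadjusted p = 0.0108, adjusted p = 0.733), whose 6 h counts were 0 in all actD libraries and 13, 11 and 0 in DMSO, so no fold is given. At 2 weeks against 72 h 0 of 23 were called by edgeR (0.0532% of 3760 genes) or DESeq2 and 0 had an unadjusted p under 0.05 in either tool, against 7.50% of genes in edgeR.

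Translational efficiency, footprints per RNA of the same gene, was tested as an interaction of assay and treatment over 12 libraries. At 72 h 0 of 19 members were called by edgeR (0.433% of 2311 genes) or DESeq2, and 1 (5.26%) had an unadjusted p under 0.05 in edgeR and 3 in DESeq2, against 14.9% of genes in edgeR. In edgeR that member was PSME2, with a log2 efficiency change of 1.16 ± 0.41 (SE; edgeR unadjusted p = 0.0149, adjusted p = 0.234), in a range of 0.72 to 1.65 over 19 alternatives. PSMC4 followed at 1.27 ± 0.63 and PSMA3 at 0.91 ± 0.50 (SE; edgeR unadjusted p = 0.0671 and 0.0938). PSME2, PSMC4 and PSMA3 could not have passed the footprint filter on their DMSO libraries alone, so their efficiency values are a description. PSMD7 was at 1.41 ± 0.90 and PSMB4 at 0.68 ± 0.44 (SE). The value of PSMD7 rests on a footprint count of 0 in DMSO replicate 2, where the other DMSO libraries held 42 and 4. The lowest value was that of PSMD4, -0.56 ± 0.77 (SE), which turned to 0.53 without footprint DMSO replicate 2, and the highest that of PSMB1, 1.85 ± 1.30 (SE), with its zeros in DMSO. For PSMD1 the efficiency change was -0.23 ± 0.54 (SE), so its RNA and footprint differences did not separate beyond the error.

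At 6 h 0 of 7 members were called for efficiency (0% of 951 genes) and at 2 weeks 0 of 15 (0% of 1441 genes), with 0 called by DESeq2. The fit at 2 weeks took the RNA treatment from the library names, which the titles contradict, so its efficiency values are uncertain too. 0 members had an unadjusted p under 0.05 in edgeR at either time, against 5.26% and 5.14% of genes, and DESeq2 gave 1 at 6 h and 0 at 2 weeks. The smallest p-values belonged to PSMB4 at 6 h (0.57 ± 0.33, SE; edgeR unadjusted p = 0.108) and to PSMB1 at 2 weeks, whose counts held zeros in both arms.

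**Figure D5:**
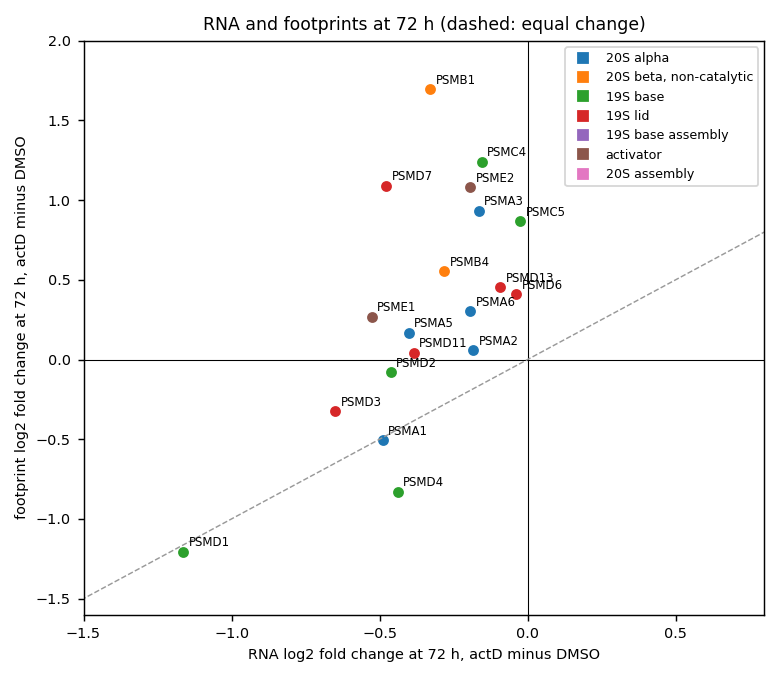
RNA (horizontal) and footprint (vertical) log2 fold changes at 72 h of the 19 members tested in both, coloured by subgroup, with a dashed line of equal change. All 19 lie left of 0 in RNA, and PSMD1 lies at the lower left near the line. In footprints 14 (73.7%) lie above 0, while 47.2% of the 2426 genes tested lay below 0. A member could pass the filter through the deeper actD libraries alone, so these counts describe only the 19. PSMB1 is the uppermost point, with DMSO counts of 0, 77 and 0.

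Genes that work with the members were compared in the same fits. Of 28 such genes, in 4 lists (catalytic subunits, receptors and bound enzymes of the 19S particle, inhibitor and shuttle factors, and the NFE2L1 pathway), 0 were called by edgeR in RNA at any time, and 1 (3.57%), 5 (17.9%) and 3 (10.7%) had an unadjusted p under 0.05 in edgeR at 6 h, 72 h and 2 weeks, against 8.21%, 13.1% and 8.93% of all genes. DESeq2 called 2 of them in RNA at 72 h, UBQLN2 and VCP, and 0 at the other times. At 72 h 20 of 28 were below 0 (median -0.11), including 5 of the 6 catalytic genes (median -0.26). The exception was the immunoproteasome gene PSMB10, at 10.3, 12.3 and 15.6 CPM in actD and 9.21, 5.60 and 5.62 CPM in DMSO (0.91 ± 0.29, SE; edgeR adjusted p = 0.293). UBQLN2, a shuttle factor that carries ubiquitylated proteins to the proteasome, stood at 24.5, 23.7 and 27.4 CPM in actD and 45.4, 38.7 and 40.2 CPM in DMSO (-0.72 ± 0.18, SE; edgeR adjusted p = 0.260).

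In footprints at 72 h 10 of the 28 were tested and 3 were called by edgeR, against 3.79% of all genes, each with an adjusted p of 0.0473; DESeq2 called the same 3. VCP, the segregase that extracts ubiquitylated proteins, fell by 2.86 on the log2 scale, from 94, 65 and 4 counts in DMSO to 21, 5 and 19 in actD. RAD23B, a shuttle factor, held 2, 0 and 0 counts in DMSO and 50, 11 and 31 in actD, and UBE2G2, a ubiquitin-conjugating enzyme of the endoplasmic reticulum pathway, held 0, 3 and 1 counts in DMSO and 48, 24 and 47 in actD. RAD23B and UBE2G2 could pass the filter only through the actD libraries, where they are high, so their calls are given as a description. Each of the 3 kept its edgeR call in 1 of the 6 fits that left out a library: VCP without DMSO replicate 3, and RAD23B and UBE2G2 without actD replicate 3. Leaving out any of the other libraries ended the call, and over the alternatives their adjusted p-values ranged from 0.00186 to 0.231. In RNA at 72 h VCP stood at 45.7, 58.4 and 77.7 CPM in actD and 176, 248 and 76.2 CPM in DMSO, with overlap at replicate 3 (-1.46 ± 0.42, SE; edgeR adjusted p = 0.276), and replicate 3 of each arm was nearest to the other, as for PSMD1 and PSMD14. At 2 weeks NFE2L1 itself stood at 184, 212 and 204 CPM in libraries named actd and 167, 144 and 141 CPM in those named dmso (0.41 ± 0.12, SE; edgeR unadjusted p = 0.0101, adjusted p = 0.449). In footprints at 2 weeks, where the labels do not conflict, NFE2L1 stood at 68.4, 71.8 and 74.3 CPM in actD and at 49.6, 45.0 and 19.6 CPM in DMSO, without overlap (0.90 ± 0.40, SE; edgeR unadjusted p = 0.0539, adjusted p = 0.562). Its libraries overlapped in RNA at 6 h (0.03 ± 0.10, SE) and 72 h (-0.08 ± 0.23, SE), and in footprints at 72 h (0.003 ± 0.48, SE). At 6 h its log2 efficiency change was below 0 (-0.75 ± 0.58, SE; edgeR unadjusted p = 0.224).

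Counting could blur some members. PSMC1 has 13 pseudogenes by name in the annotation and PSMA6 has 4, and how reads shared with them were assigned is not given in the sources used here. PSMD1 overlaps HTR2B on the other strand, and PSMD5 overlaps CUTALP; the use of strand in counting is likewise not given.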

How the data were processed

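The members and gene lists were chosen with earlier results of these data known. The authors deposited 1 table of whole-number estimated counts (expected counts) per gene for each assay and time point; the submitters' processing notes name HISAT2, StringTie and the build hg38, while the counting program, annotation and use of strand are not given in the sources used here. In the RNA data of 6 h and 2 weeks low values are more frequent at multiples of 2.68 counts, so no limit is set for zeros there. All 36 columns were used as deposited. Each comparison was fitted on all genes with edgeR 4.0.16 in R 4.3.3: TMM scaling, filterByExpr with a minimum count of 10, the quasi-likelihood test, two-sided, and Benjamini-Hochberg adjustment. Efficiency and time effects were interactions over 12 libraries. SE is the absolute log2 fold change divided by the square root of F. An exact permutation test of 3 against 3 libraries cannot go below 0.1. Alternatives were DESeq2 1.42.0, other scalings and filters, a replicate block and leaving out each library. By the rule for named genes, full values may be given for members called, for the smallest p and highest mean CPM of each subgroup, for the highest and lowest fold change and for non-overlapping members; at 72 h PSMA6, PSMC3, PSMC5, PSMD2, PSMD3, PSMD7, PSMD11, PSME1, PSMG1, PSMG3 and PSMG4 were named after their values were seen. The fits were tested on simulated counts. The value of 1 marker gene is not reported here.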

Additional observations from a re-analysis of the deposited data

How the results depend on the processing

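Members were called under the following alternatives and no others that were run. Scaling of efficiency over all genes that pass in each assay was added after the data were seen. The single fit over 3 time points called 2 in RNA at 72 h, and dropping the low-count filter called 1 in footprints at 72 h (PSMB3, listed at 0 in all libraries but 1). Leaving out single libraries gave 0 to 1 members called for efficiency at 6 h and 0 to 1 at 72 h, in each case a gene with zeros in a whole arm. Scaling by library totals moved the member median to -0.063 in RNA at 2 weeks, -0.38 in footprints at 6 h and -0.43 for efficiency at 6 h, and turned PSMA3 efficiency at 6 h to -0.11. Leaving out single libraries gave member medians of -0.11 to 0.38 in footprints and 0.0866 to 0.43 for efficiency at 6 h; it turned PSMD4 efficiency at 72 h (-0.97 to 0.53) and the footprint change of PSMA4 between 72 h and 2 weeks (-0.15 to 1.75). By the titles the 2-week RNA median was -0.0858, PSME3 0.36 and POMP -0.24. As shares of all counts the members took 0.566% and 0.560% (RNA, 6 h, actD and DMSO), 0.406% and 0.488% (72 h), 0.326% and 0.348% (2 weeks, named actd and named dmso), and in footprints 0.0479% and 0.0631% (6 h), 0.217% and 0.154% (72 h) and 0.0414% and 0.0362% (2 weeks). With the length of the longest transcript the median level was 185 at 6 h and 142 at 2 weeks (named dmso). Footprint depth limits what can be seen of members under about 10 counts.

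The replicate numbers were not taken as pairs, since in no comparison was every correlation of same-numbered deviations, over its arms, above 0.1. For actD against DMSO these were -0.145 to -0.02 (6 h), 0.08 to 0.23 (72 h) and -0.004 to 0.18 (2 weeks) in RNA, and -0.74 to -0.04, -0.03 to 0.04 and -0.05 to 0.42 in footprints. For RNA against footprints at 72 h they were 0.17 to 0.43 in actD, all over 0.1, and 0.09 to 0.19 in DMSO. With a replicate block 0 members were called in each of the 12 comparisons, and the member median of RNA at 72 h was -0.18.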
